A study of Mus musculus with 13 samples.

Results

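Wnt proteins are secreted ligands that keep the stem cells at the base of colonic crypts dividing. In the cell that makes them, Porcn adds a lipid and Wls carries the lipid-bearing ligand to the surface. In the cell that receives them, a Frizzled receptor pairs with the coreceptors Lrp5 or Lrp6 to stabilize beta-catenin, while Ryk, Ror1 and Ror2 serve as alternative receptors. R-spondins bind Lgr4, Lgr5 or Lgr6 and remove the ubiquitin ligases Rnf43 and Znrf3, which otherwise clear Frizzled from the membrane. Apc acts below these receptors, as part of the complex that destroys beta-catenin. The genes described here are those of the ligands, their secretion, their receptors and the R-spondins. They were chosen by symbol, as all genes named Wnt, Fzd or Rspo with a number, together with Lgr4, Lgr6, Lrp5, Lrp6, Ryk, Ror1, Ror2, Porcn and Wls. The rule gave 44 of the 32285 genes in the deposited matrices, of which 19 were Wnt ligands, 10 Frizzled receptors and 4 R-spondins, and 2 were transcripts on the opposite strand of a member (Fzd10os and Rspo4os). Over all retained cells, 26 members held at least 500 unique molecular identifiers (UMIs, each marking a captured transcript), 6 held at least 100 but fewer than 500, and 12 held fewer than 100, of which Rspo4 had the most with 84 and Rspo2 was at 0.

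The data were single-cell RNA sequencing (scRNA-seq) libraries of 10 colon tumors and 3 adjacent mucosa samples from 3 C57BL/6J mice. All mice were ApcMin/+; p16cis/cis, so they carried 1 truncated Apc allele and an engineered p16 locus prone to promoter methylation, and all were on the supplemented diet, with no mice of another genotype or diet here. By the animal codes in the labels, mouse A (24 weeks of age) gave tumors 5 to 8 and mucosa 2, mouse B (23 weeks) gave tumors 9 and 10 and mucosa 3, and mouse C (20 weeks) gave tumors 1 to 4 and mucosa 1. Mucosa was dissociated with EDTA and TrypLE and tumors with a tumor dissociation kit, so the dissociation and the tissue cannot be told apart in any comparison below. Tumors of a mouse are not independent animals.

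After filtering, 85953 tumor cells (6916 to 9791 per tumor, median depth 3578 to 5006 UMIs per cell) and 22542 mucosa cells (4917 to 9398 per sample, 7368 to 9704 UMIs per cell) remained. Of the 135282 distinct barcodes deposited, 2284 occurred in more than 1 library. Levels are given as counts-per-million (CPM), the UMIs of a gene scaled to a fixed total of the same cells, and genes are not compared with each other by level. UMI totals were used only to choose which genes are shown. The labels call 7 of the 13 libraries female, but Xist did not exceed 0.125 CPM in any library and the Y-linked Ddx3y (29.4 to 49.6) and Eif2s3y (50.9 to 68.8) were detected in all 13. Within mouse A and within mouse C the labels name both sexes. Sex was therefore not used. The pairing by mouse rests on the animal codes of the same labels.

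The promoters of 29 members were available as 32 RefSeq windows of 300 bases (250 before and 50 after the start of transcription, GRCm38.p6). Wnt6 and Wnt16 are shown because, of the ligands with a window, they held the most tumor UMIs in the epithelial sums among those that rose there, and 1 of the 3 windows of Wnt5b because it holds a match to CTTTGAT, the letters of the TCF/LEF site through which beta-catenin acts, which is in capitals.
Wnt6 (chr1:74771642-74771941, plus strand): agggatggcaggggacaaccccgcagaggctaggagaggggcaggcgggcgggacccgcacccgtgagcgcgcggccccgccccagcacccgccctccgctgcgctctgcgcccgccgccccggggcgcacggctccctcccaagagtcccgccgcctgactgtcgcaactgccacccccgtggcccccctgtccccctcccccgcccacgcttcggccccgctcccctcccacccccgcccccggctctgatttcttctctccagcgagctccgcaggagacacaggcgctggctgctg
Wnt16 (chr6:22287977-22288276, plus strand): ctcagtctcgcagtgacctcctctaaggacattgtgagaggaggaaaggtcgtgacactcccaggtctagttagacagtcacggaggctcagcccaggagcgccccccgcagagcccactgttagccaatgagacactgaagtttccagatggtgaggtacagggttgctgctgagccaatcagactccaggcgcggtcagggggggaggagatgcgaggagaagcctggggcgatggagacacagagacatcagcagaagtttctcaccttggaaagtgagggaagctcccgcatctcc
Wnt5b (chr6:119449337-119449636, minus strand): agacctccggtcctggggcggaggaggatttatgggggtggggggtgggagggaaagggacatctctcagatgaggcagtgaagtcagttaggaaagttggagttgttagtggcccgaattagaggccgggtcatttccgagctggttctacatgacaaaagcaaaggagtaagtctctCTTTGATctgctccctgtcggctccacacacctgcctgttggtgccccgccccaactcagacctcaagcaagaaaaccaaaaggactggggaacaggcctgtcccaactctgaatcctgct
CTTTGAT or its reverse complement ATCAAAG stood in 2 of the 32 member windows (6.25%), those of Wnt5b and Wnt11, against 1225 of all 32851 windows (3.73%). Wnt6 (chr1:74771892-74785322) and Wnt10a (chr1:74791516-74804179) lie on the same strand of chromosome 1, 6194 bases apart, with no protein-coding gene starting between them. Wnt3a and Wnt9a, Wnt9b and Wnt3, and Wnt10b and Wnt1 are the other neighboring pairs of ligand genes.

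To ask how the family differed between tumor and mucosa epithelium, UMIs were summed over the epithelial clusters of each library (22682089 to 40056789 UMIs in tumors, 61067656 to 80632228 in mucosa) and tested with edgeR's quasi-likelihood test with Benjamini-Hochberg adjustment over all genes. Most of the ligands that could be tested were far higher in tumors, whereas the Frizzled receptors split. Of the 44 members, 31 could be tested, 17 were higher in tumors, 6 were lower, 8 did not pass and 13 were too sparse. Over all 15490 genes tested, 34.2% were higher and 30.4% lower. The median log2 fold change (tumor over mucosa) was 0.86 over the members tested and 0.04 over all genes. By role, 9 of 10 ligands tested were higher. Of these 9, Wnt10a, Wnt16, Wnt7a, Wnt7b and Wnt9a held at most 2 UMIs in the mucosa and so passed the count filter through the tumors alone. Wnt3, Wnt4, Wnt5b and Wnt6 were also low in the mucosa, so their passing rested on the tumors as well. The same holds for Lgr6, Rspo4, Fzd10 and Fzd10os. Wnt5a, with 593 UMIs in the mucosa and 16 in tumors, fell below the filter. The count of ligands, and the shares and the median over the members tested, therefore do not measure the direction of all members. Of the receptors, 2 of 10 Frizzled receptors were higher and 5 lower, and 2 of 5 coreceptors and alternative receptors were higher and 1 lower. In these sums, fewer cells of a type and less RNA per cell cannot be told apart. Without TMM scaling the median of all genes moved from 0.04 to 0.32, and 69.8% of the calls in place of 52.9% were higher. Since this change moves fold changes upward, it could not turn the direction of a member that rose. Without TMM scaling 4 Frizzled receptors (Fzd10, Fzd6, Fzd7 and Fzd1) were higher and 4 (Fzd3, Fzd5, Fzd8 and Fzd9) lower.

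**Figure D1:**
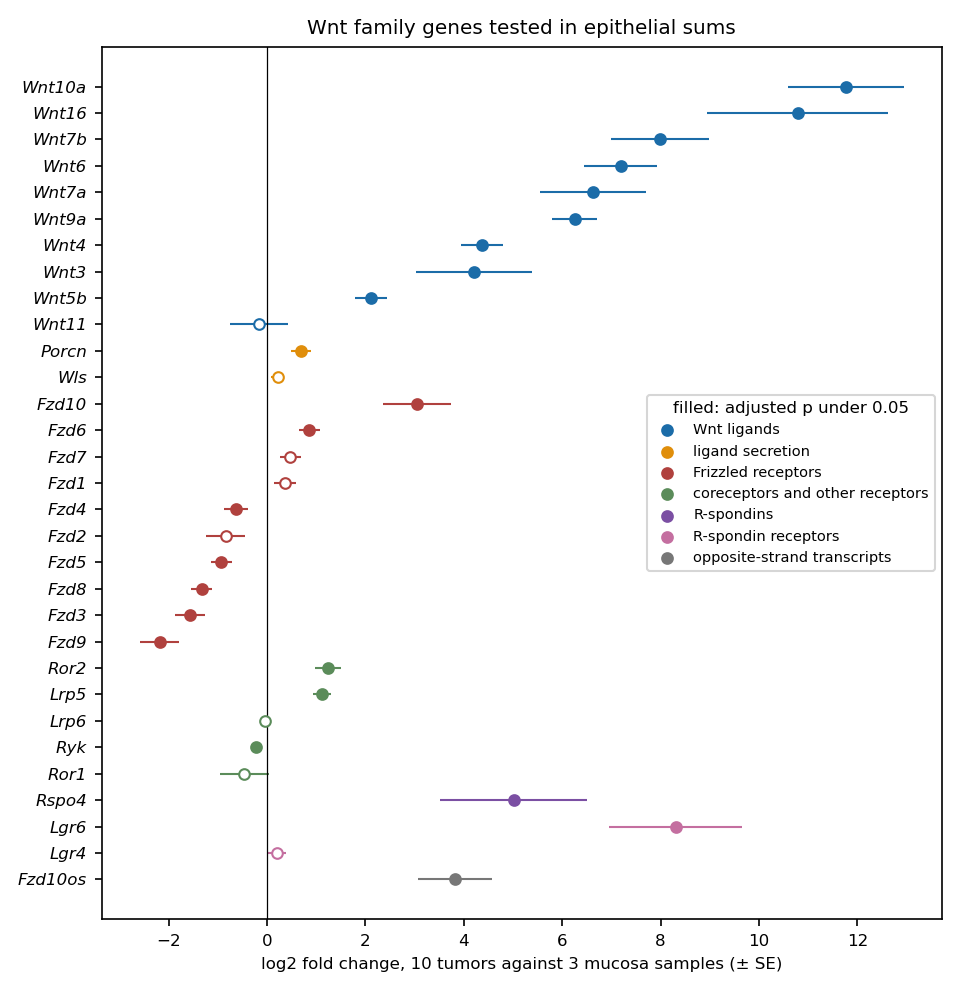
Log2 fold change of each tested member in the epithelial sums (x axis, 10 tumors against 3 mucosa samples, bars are SE), with genes on the y axis grouped by role and filled points past an adjusted p of 0.05 in edgeR's test. Wnt ligands reach 11.77 (Wnt10a), while Frizzled receptors lie on both sides of 0.

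Wnt6 and Wnt10a, neighbors on chromosome 1, were both far higher in tumor epithelium. Wnt6 lay between 14.4 CPM (tumor 10) and 115 CPM (tumor 1) in the tumors, with a median of 58.4, against 0.147, 0.390 and 0.496 in mucosa 1, 2 and 3. Wnt10a, a ligand known for its part in hair, tooth and sweat gland formation, lay between 9.24 (tumor 10) and 67.0 CPM (tumor 1) with a median of 31.8, and a single UMI was counted in the mucosa, in mucosa 3 (0.0124 CPM). All 10 tumors were thus above all 3 mucosa samples for both genes, a separation in this direction that 34% of all genes tested showed (12.7% in the other). The log2 fold change was 7.19 ± 0.75 (SE, adjusted p = 3.87e-06 in edgeR) for Wnt6 and 11.77 ± 1.17 (adjusted p = 2.65e-06) for Wnt10a. For Wnt10a, the 9387 tumor UMIs against 1 gave a ratio of rates of 7039 with a 95% counting interval of 1263 to 278049, which covers counting error only.

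Wnt16 and the related pair Wnt7a and Wnt7b were counted in the tumors alone. Wnt16, a ligand known for its effect on bone thickness, ranged from 0.981 (tumor 5) to 15.5 CPM (tumor 2) with a median of 3.89, and no UMI was found in any mucosa sample. Its 1872 tumor UMIs made it at least 468-fold higher than a floor of 3 UMIs over the mucosa samples (adjusted p = 0.000312, edgeR). Wnt7b lay between 0.264 and 1.77 CPM (median 0.937) in tumors, at least 65.5-fold higher (adjusted p = 3.33e-05, edgeR). Wnt7a lay at 0.044 to 0.596 CPM, with 101 UMIs over all tumors (at least 25.2-fold higher, adjusted p = 0.000228). All 3 genes stood at 0 in the mucosa samples and above 0 in each of the 10 tumors.

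Wnt9a, Wnt4 and Wnt5b were also higher in each tumor than in any mucosa sample. Wnt9a varied little among tumors, between 0.829 and 1.48 CPM, and held 2 UMIs over all mucosa samples (log2 fold change 6.25 ± 0.45, adjusted p = 2.89e-07, edgeR). Wnt4, which acts in kidney and female reproductive tract development, ranged from 2.09 (tumor 2) to 5.95 CPM (tumor 5) with a median of 3.54, against 0.246, 0.0941 and 0.0992 in mucosa 1, 2 and 3 (log2 fold change 4.37 ± 0.42, adjusted p = 2.19e-06). Wnt5b ranged from 0.660 to 2.41 CPM with a median of 1.50, against 0.344, 0.296 and 0.248 (log2 fold change 2.12 ± 0.33, adjusted p = 9.03e-05). Beside these levels, the summed immune lineage markers in the same epithelial sums were 32.4 to 97.3 CPM in tumors and 12.6 to 14.4 in mucosa, with all 8 genes higher in tumors. Pericyte or smooth muscle markers were 8.19 to 45.5 against 0.508 to 1.46 CPM, and fibroblast markers 0.275 to 5.60 against 0.112 to 0.309. The part of these other cells in the ligand levels was not tested.

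Wnt3, the ligand that Paneth cells of the small intestine provide to neighboring stem cells, was uneven among tumors. It reached 6.26 CPM in tumor 2, 4.47 in tumor 8 and 3.80 in tumor 1, whereas tumors 9 (0.130) and 7 (0.172) lay close to the mucosa samples (0.0655, 0.107 and 0.112). Its log2 fold change was 4.21 ± 1.18 (adjusted p = 0.00647, edgeR), and the call was lost with stricter doublet removal (log2 fold change 3.26, adjusted p = 0.0531). Wnt11, which drives cell movements in the embryo, did not differ by the test (0.125 to 1.50 CPM in tumors, 0.115, 0.712 and 0.682 in mucosa, log2 fold change -0.16 ± 0.59, adjusted p = 0.829).

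Wnt5a, a ligand that signals largely without beta-catenin, went the other way. It was counted 593 times in mucosa epithelium and 16 times in tumor epithelium. The mucosa samples were themselves far apart, at 0.147 CPM in mucosa 1, 3.27 in mucosa 2 and 4.23 in mucosa 3, and tumors lay between 0 and 0.132. Since it was low in mucosa 1 as well as in the tumors, Wnt5a fell below the count filter of the epithelial test. Without that filter its log2 fold change was -5.73 ± 0.64 (adjusted p = 5.64e-06, edgeR), and in sums over all cells, where it passed the filter, -4.96 ± 0.64 (adjusted p = 1.20e-05). In mouse C, whose mucosa is the low sample, the 4 tumors lay at 0.0275 to 0.0614 CPM, also below their own mucosa.

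**Figure D2:**
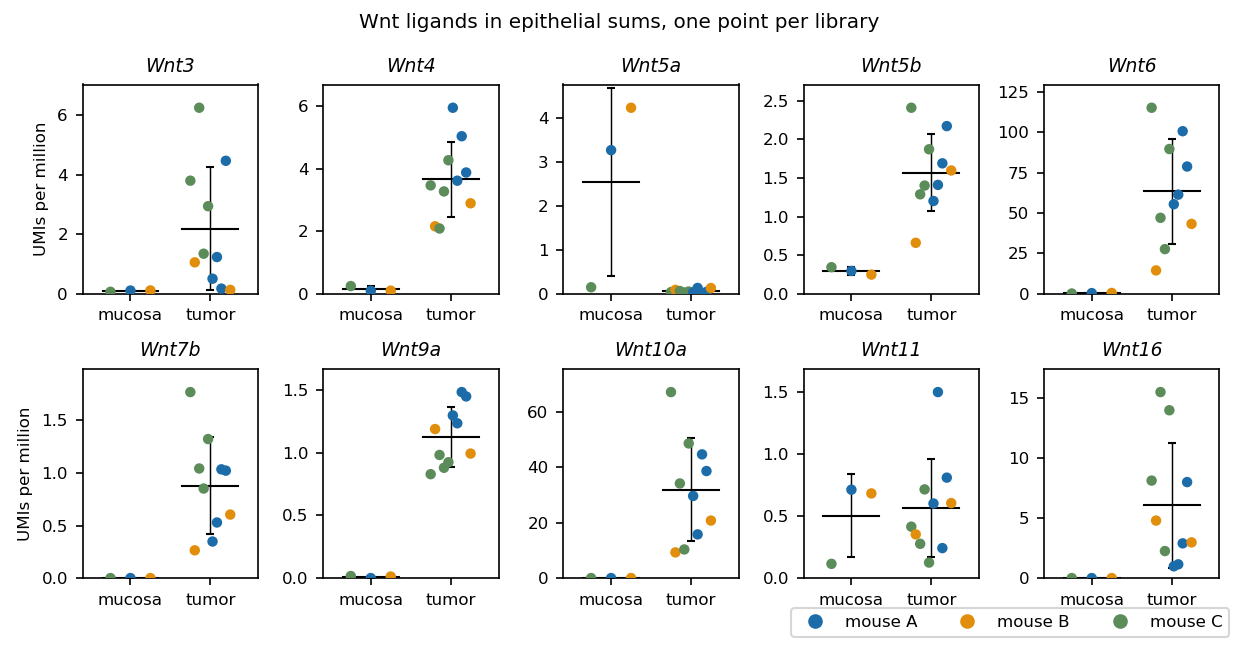
CPM of 10 Wnt ligands in the epithelial sums (y axis, from 0), with 1 point per library colored by mouse, lines at the group mean and bars of ± SD over 3 mucosa samples or 10 tumors. Wnt6, Wnt10a, Wnt16, Wnt9a, Wnt4 and Wnt7b lie above all mucosa samples in each tumor, while Wnt5a is at 3.27 and 4.23 CPM in 2 of the 3 mucosa samples and near 0 in the tumors.

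The other ligands were rare. Wnt10b (33 UMIs in tumor and 16 in mucosa epithelium), Wnt8b (23 and 6), Wnt2b (15 and 3) and Wnt1 (8 and 0) were too sparse to test, and Wnt2, Wnt3a, Wnt8a and Wnt9b held at most 3 UMIs in either group. Wnt2b is known from stroma of the gut, a compartment that these libraries held little of.

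For ligand secretion, Porcn rose and Wls did not pass. Porcn ranged from 0.968 to 1.76 CPM in tumors (median 1.55) against 0.786, 0.833 and 0.620 in mucosa 1, 2 and 3 (log2 fold change 0.69 ± 0.21, adjusted p = 0.00968, edgeR). The call was lost without mucosa 3 (adjusted p = 0.0657). Wls ranged from 52.2 to 86.6 CPM (median 62.0) against 45.9, 48.8 and 40.7, so all tumors were above all mucosa samples on the CPM scale. On the scale of the test its log2 fold change was 0.22 ± 0.13 (adjusted p = 0.151, edgeR), and it passed without TMM scaling (0.50, adjusted p = 0.00645).

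Among the Frizzled receptors, Fzd10 and Fzd6 were higher in tumors. Fzd10, which is scarce in most adult tissues, ranged from 0.572 (tumor 10) to 6.25 CPM (tumor 1) with a median of 2.65, against 0.246, 0.376 and 0.211 in mucosa (log2 fold change 3.05 ± 0.69, adjusted p = 0.00158, edgeR). Its opposite-strand transcript Fzd10os followed, at 0.220 to 2.90 CPM against 0.0403 to 0.0992 (log2 fold change 3.81 ± 0.75, adjusted p = 0.000585). The spans of the 2 genes do not overlap. Fzd6, a receptor of planar cell polarity, ranged from 6.52 to 11.7 CPM against 5.37, 3.01 and 3.52 (log2 fold change 0.86 ± 0.21, adjusted p = 0.00227).

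The receptors Fzd3, Fzd5, Fzd8, Fzd9 and Fzd4 were lower. Fzd3, the planar polarity partner of Fzd6, was 1.41 to 7.34 CPM in tumors (median 4.25) against 7.68, 12.5 and 12.1 in mucosa 1, 2 and 3 (log2 fold change -1.57 ± 0.31, adjusted p = 0.00062, edgeR). Fzd8 was 1.09 to 2.60 CPM against 4.14, 3.79 and 4.01 (log2 fold change -1.33 ± 0.21, adjusted p = 0.000115), with no overlap between groups. Fzd5, which Paneth cells need for their maturation, was 9.68 (tumor 1) to 23.0 CPM (tumor 10) against 18.4, 25.7 and 32.3. Each tumor was below its own mouse's mucosa for Fzd5, although the groups overlapped (log2 fold change -0.93 ± 0.21, adjusted p = 0.00168, edgeR). Fzd9 was 0.132 to 0.614 CPM in tumors against 3.19 in mucosa 1, 0.994 in mucosa 2 and 0.831 in mucosa 3 (log2 fold change -2.18 ± 0.40, adjusted p = 0.000368). Without goblet-like cells, which make up 19.2% of mucosa cells and 0.645% of tumor cells, Fzd9 turned to 0.22 (adjusted p = 0.643). Fzd4, the receptor of Norrin, had a small difference (0.836 to 2.16 against 1.75 to 2.0 CPM, log2 fold change -0.63 ± 0.24, adjusted p = 0.0341) that was lost without any 1 of the 3 mucosa samples, without tumor 7 or 8, without TMM scaling and without goblet-like cells (adjusted p 0.051 to 0.784).

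The remaining Frizzled receptors, Fzd7, Fzd1 and Fzd2, did not pass, although each did under some alternatives. Fzd7, a receptor of intestinal stem cells, lay at 3.73 to 7.64 CPM in tumors and 2.41 to 3.95 in mucosa (log2 fold change 0.48 ± 0.21, adjusted p = 0.0633, edgeR). It passed with DESeq2, without mucosa 1, without tumor 1, with stricter doublet removal and without TMM scaling (0.75, adjusted p = 0.00715 in edgeR). Fzd1 lay at 4.26 to 9.07 against 2.89 to 4.27 CPM (0.36 ± 0.22, adjusted p = 0.164) and passed without TMM scaling (0.63, adjusted p = 0.0182). Fzd2 lay at 0.924 to 8.07 against 4.62 to 5.87 CPM (-0.84 ± 0.39, adjusted p = 0.0739), with tumor 6 highest, and passed when tumor 6 was left out (-1.03, adjusted p = 0.0174), at under 10% mitochondrial UMIs, with tumors summed by mouse and without goblet-like cells.

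Of the coreceptors, Lrp5 rose and Lrp6 did not. Lrp5 was 16 (tumor 4) to 29.9 CPM (tumor 9) in tumors with a median of 21, against 9.91, 7.07 and 8.12 in mucosa 1, 2 and 3 (log2 fold change 1.12 ± 0.19, adjusted p = 0.000152, edgeR). Lrp6 was close in all libraries, at 45.3 to 55.9 CPM against 43.4, 40.3 and 47.8, with a log2 fold change of -0.04 ± 0.07 (adjusted p = 0.637), which turned to 0.24 (adjusted p = 0.0159) without TMM scaling and was -0.16 (adjusted p = 0.0431) without goblet-like cells. Ror2, a receptor of Wnt5a, was 3.48 (tumor 10) to 7.72 CPM (tumor 6) against 3.39 in mucosa 1, 1.69 in mucosa 2 and 1.20 in mucosa 3 (log2 fold change 1.24 ± 0.27, adjusted p = 0.00128). Ror1 did not pass (0.176 to 1.63 CPM in tumors, 1.85, 0.618 and 0.806 in mucosa, log2 fold change -0.46 ± 0.50, adjusted p = 0.425). Ryk was 40.3 to 51.3 CPM against 44.3, 47.2 and 43.9, a log2 fold change of -0.23 ± 0.08 (adjusted p = 0.0191, edgeR) that turned to 0.05 without TMM scaling and was lost without mucosa 2, with tumors summed by mouse and at under 10% mitochondrial UMIs (adjusted p = 0.173).

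R-spondin transcripts were almost absent from the epithelial sums, while their receptor Lgr6 rose there. Rspo4 held 83 UMIs in tumor epithelium and 1 in mucosa, a ratio of rates of 62.2 (counting interval 10.9 to 2488, log2 fold change 5.02 ± 1.49, adjusted p = 0.00937 in edgeR). Tumors 6 (1.19 CPM), 1 (0.640), 4 (0.424) and 3 (0.357) were high and the other 6 lay between 0.0345 and 0.0863. Rspo1, Rspo2 and Rspo3 held at most 3 UMIs in the epithelial cells of either group. Only 82 tumor cells and 2 mucosa cells fell in a cluster of mixed stromal cells, so these values do not speak for the stroma. Lgr6 ranged from 0.411 (tumor 5) to 6.42 CPM (tumor 4) in tumors, with a median of 2.58, and held a single mucosa UMI against 877, a ratio of rates of 658 (counting interval 118 to 26004, log2 fold change 8.31 ± 1.35, adjusted p = 0.000135). Lgr4 was 32.1 to 61.2 CPM in tumors against 27.3, 31.4 and 35.8, with a log2 fold change of 0.20 ± 0.19 (adjusted p = 0.381), although each tumor was above its own mucosa on the CPM scale.

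**Figure D3:**
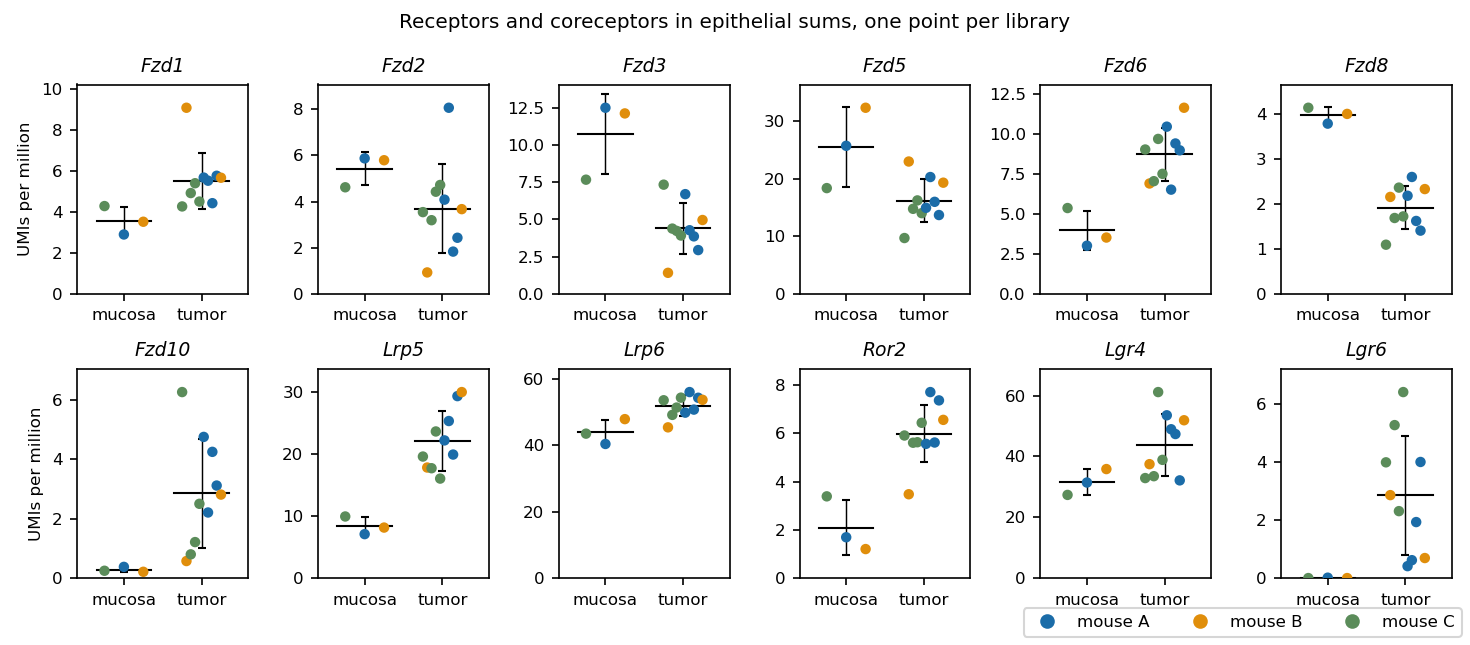
CPM of 12 receptors and coreceptors in the epithelial sums (y axis, from 0), with 1 point per library colored by mouse, lines at the group mean and bars of ± SD over 3 mucosa samples or 10 tumors. Lrp5, Ror2, Fzd6, Fzd10 and Lgr6 lie above the mucosa in all tumors, and Fzd3 and Fzd8 lie below.

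To set tumor cells beside crypt cells in place of mature epithelium, the tumor epithelial-like clusters were compared with mucosa epithelium that was neither absorptive-, goblet- nor enteroendocrine-like. No tuft-like class was found. The sides were not matched: the mucosa side kept 1738 cycling epithelial-like cells, in which mucosa Fzd1 was highest (4.75 CPM pooled). The tumor side left out its 148 cycling epithelial-like, 789 Paneth-like and 1624 other epithelial cells. The part of this mismatch in the calls was not tested. Here 29 members were tested, 16 were higher and 6 lower, against 37.9% higher and 31.8% lower of all 14949 genes. Wnt10a, Wnt16, Wnt7a, Wnt7b, Wnt9a, Lgr6 and Rspo4, with at most 3 mucosa UMIs, again passed the count filter through the tumors, and Wnt5a fell below it. The counts of members therefore do not measure the direction of all members. The Frizzled receptors again split. Fzd2 now passed, at 1.58 to 9.85 CPM in tumors against 9.80, 10.7 and 11.3 CPM over the mucosa samples (log2 fold change -1.49 ± 0.34, adjusted p = 0.0015, edgeR), and Fzd1 was also lower (-0.54 ± 0.18, adjusted p = 0.0131). The call of Fzd1 was lost without mucosa 1 and without TMM scaling (-0.31, adjusted p = 0.127). Fzd3 (-1.83 ± 0.25), Fzd8 (-1.65 ± 0.26) and Fzd5 (-1.15 ± 0.18) were lower with no overlap between groups, a separation in this direction that 16.8% of all genes showed. Porcn was higher by 1.09 ± 0.26 (adjusted p = 0.00199) and Ror2 by 1.81 ± 0.23 (adjusted p = 1.03e-05). Wnt3 fell out of the test, with 32 UMIs in the tumor epithelial-like cells and 8 in mucosa. Wnt5a was counted 8 times in tumors and 436 times in mucosa, and without the count filter its log2 fold change was -6.76 ± 0.72 (adjusted p = 1.25e-06). In these sums too, the summed dissociation stress genes were 2931 to 6681 CPM in tumors and 987 to 1343 in mucosa, and their part in the calls was not tested.

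In sums over all cells of a library, which also carry the change from mostly epithelial mucosa to tumors rich in immune cells, 33 members were tested, 16 were higher and 11 lower (36.1% and 34.4% of 17382 genes). The same 7 members with at most 3 mucosa UMIs, Wnt10a, Wnt16, Wnt7a, Wnt7b, Wnt9a, Lgr6 and Rspo4, passed the count filter through the tumors. These counts therefore do not measure the direction of all members. Wnt4 lay at 3.70 to 8.37 CPM in tumors and 0.113 to 0.309 in mucosa (log2 fold change 4.98 ± 0.38, adjusted p = 1.08e-07, edgeR). Rspo1, an R-spondin that passed the filter only here, held 132 UMIs in tumors and 10 in mucosa (log2 fold change 2.26, adjusted p = 0.0013). Of the receptors, Lrp6 (-0.48), Ryk (-0.94) and Fzd9 (-2.72) were among the 11 lower, while Lrp5 (0.53), Fzd7 (0.49), Fzd10 (2.22) and Lgr6 (6.49) were among the 16 higher. The call of Fzd7 was lost without mucosa 2 (adjusted p = 0.094, edgeR) or mucosa 3 (0.0661), and that of Lrp5 at under 10% mitochondrial UMIs (0.0797). The epithelial lineage markers were 3447 to 6472 CPM in tumors and 7822 to 13985 in mucosa.

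The ligands were not spread evenly over the tumor epithelium, in which 4 clusters of tumor epithelial-like cells and a Paneth-like cluster were found. Members took no part in the clustering, so the values below describe the clusters and no test is given. In the cluster led by Mt4 and Pnliprp2, which held 11.2% to 40.2% of the tumor epithelial-like cells of each tumor, Wnt6 lay between 143 and 267 CPM (median 221). In the clusters led by Gkn3, H1fx and Sprr2b it lay between 3.92 and 28.1, between 4.88 and 45.2 and between 2.79 and 54.7 CPM. In each of the 10 tumors the Mt4-led cluster was therefore the highest for Wnt6. The tumors spread less within this cluster than in the epithelial sums: tumor 10, at 14.4 CPM the lowest of the sums, stood at 221 CPM in the Mt4-led cluster. Wnt10a followed, at 56.0 to 147 CPM (median 104) in the Mt4-led cluster and at most 23.8 in the other 3, and it was 2.53 to 29.7 CPM in the Paneth-like cells of the 8 tumors with at least 20 of them. Fzd10 lay at 2.91 to 14.5 CPM in the Mt4-led cluster and at most 2.84 in the others, and Porcn (2.66 CPM pooled) was also highest there.

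Cells of the Mt4-led cluster often carried both neighboring ligands. Per tumor, 52.0% to 71.1% of these cells held a Wnt6 UMI (median 64.8%), 38.5% to 62.2% a Wnt10a UMI and 29.9% to 52.0% both. Wnt10a was found in 47.8% to 74.3% of the cells with Wnt6 and in 15.5% to 33.9% of those without, but the cells with Wnt6 were also deeper (median of tumor medians 18320 against 13807 UMIs per cell). In neutrophil-like cells, which should lack these ligands, at most 0.286% held a Wnt6 UMI and at most 0.232% a Wnt10a UMI, at a median depth of 2602 UMIs against 17007 in the Mt4-led cluster. Without the Mt4-led cluster, an alternative chosen after the data were seen, Wnt6 and Wnt10a were still higher in undifferentiated tumor epithelium than in mucosa (log2 fold changes 5.32 and 8.93, adjusted p = 3.83e-06 and 1.08e-05 in edgeR). Fzd10 fell to 1.08 (adjusted p = 0.0131) from 2.87 and Porcn was lost (0.60, adjusted p = 0.0834).

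Wnt3 and Lgr6 had other places. Wnt3 was 33.9 to 77.0 CPM in the Paneth-like cells of 8 tumors (45.3 pooled, 616 of the 653 tumor epithelial UMIs) and at most 1.6 in any tumor epithelial-like cluster of any tumor. Without Paneth-like cells it no longer passed the count filter. The Paneth-like cells also held the highest tumor levels of Ror2 (11.3 CPM pooled), Lrp5 (27.5), Fzd9 (4.93) and Wnt9a (1.99). With stricter doublet removal Lrp5 was instead highest in the cluster led by Sprr2b (30.5 CPM pooled) and Wnt9a in that led by Gkn3 (1.57). Lgr6 was 0.594 to 15.6 CPM in the Gkn3-led cluster, whose leading genes also include Lgr5, and 0 to 1.19 in the Mt4-led cluster, and it was higher in the Gkn3-led cluster in each of the 10 tumors. Wnt16 was found in both, at 0.530 to 28.1 CPM in the Gkn3-led and 1.08 to 19.5 in the Mt4-led cluster, with tumors 2 and 4 high in the Gkn3-led cluster and tumors 5 and 6 low. It was also found in the Sprr2b-led cluster (0 to 17.7 CPM), in Paneth-like cells (0 to 15.2) and in the H1fx-led cluster (0 to 9.66). Wnt7a (2.71 CPM pooled, 42 UMIs) and Wnt7b (4.33, 67 UMIs) were highest in the cluster led by Sprr2b and Krt36. Stricter doublet removal took out much of this cluster and of the Paneth-like cells. It left 18 Wnt7a and 13 Wnt7b UMIs in the former and 179 Wnt3 UMIs in the latter, where each was still highest.

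**Figure D4:**
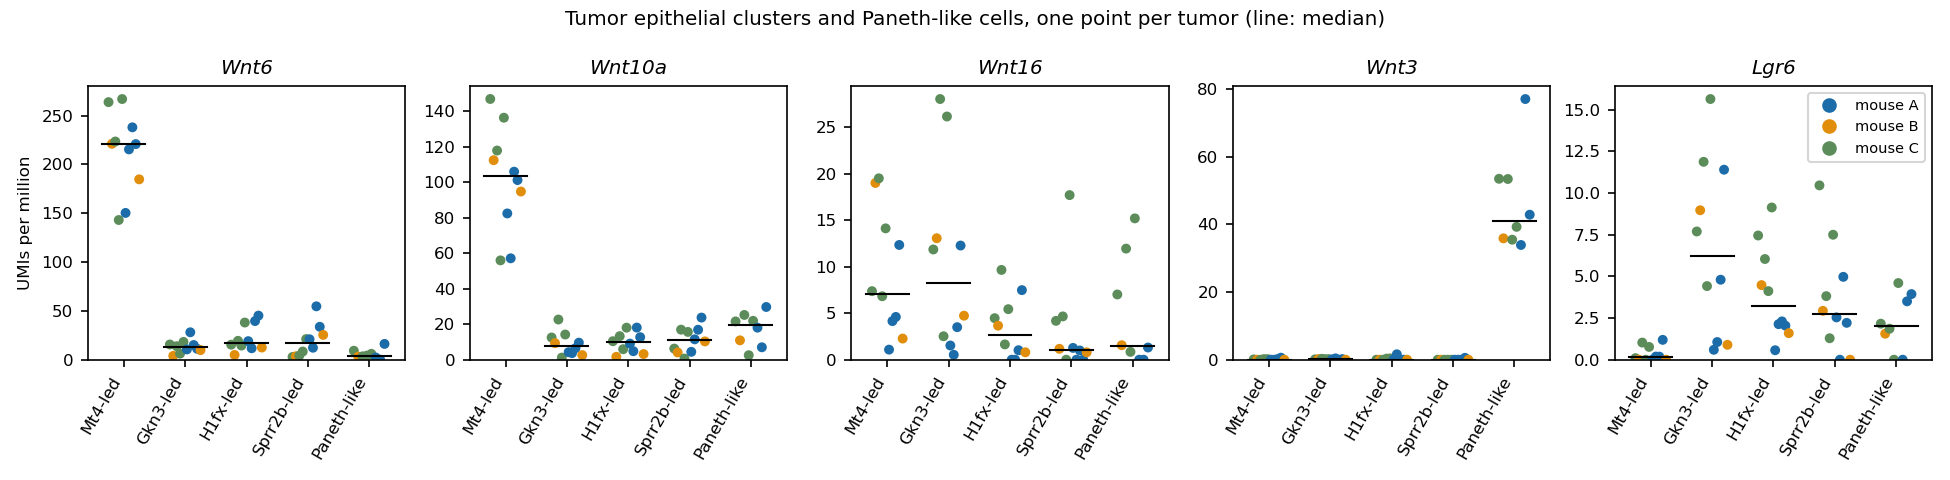
CPM (y axis, from 0) of 5 members in the 4 clusters of tumor epithelial-like cells and in Paneth-like cells, with 1 point per tumor with at least 20 such cells, colored by mouse, and lines at the median. Wnt6 and Wnt10a peak in the Mt4-led cluster (medians 221 and 104), Wnt3 in Paneth-like cells, and Lgr6 has its highest median (6.24) in the Gkn3-led cluster, though not in each tumor.

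Across the classes and clusters with at least 100 cells, most members were highest in epithelial cells. Of the 32 members with at least 100 UMIs, 27 were highest in an epithelial class or cluster in the tumors, and in mucosa 22 of the 23 that reached 10 UMIs in a class were. The share over all genes was not computed, so these counts describe the members only. A minimum of 10 UMIs asks for a higher level in small sums. In mucosa, T cell-like cells held 1617829 UMIs and goblet-like cells 69909736. The mixed stromal cluster of 82 tumor cells was left out. With stricter doublet removal 24 of the 32 were highest in the same tumor class or cluster as before. In mucosa the highest class then changed for Fzd2, Fzd10, Lrp5, Lrp6, Ror2 and Wnt5b. In mucosa, the cluster led by Sult1a1 and Otc held the highest levels of Fzd3 (12.8 to 25.9 CPM), Fzd2 (10.7 to 12.5) and Wnt5a (0.220 to 7.79, with mucosa 1 the lowest), although with stricter doublet removal Fzd2 was highest in cycling epithelial-like cells (12.3 CPM pooled). Fzd9 (2.82 to 5.56 CPM) and Fzd4 (2.47 to 4.03) were highest in mucosa goblet-like cells, while Fzd8 (4.60 to 18.6) and Fzd6 (9.56 to 22.7) were highest in the few enteroendocrine-like cells. Fzd5 was highest in absorptive-like cells of both tissues, at 29.6 to 49.3 CPM in tumors and 43.4 to 53.6 in mucosa, but with stricter doublet removal its highest tumor level was in goblet-like cells (45.7 CPM pooled, from 35 UMIs). Order within such ranges is a description, since neighboring classes often overlap over libraries.

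Outside the epithelium, a few members were found in immune or stromal cells. In tumors, Wnt11 was 3.03 to 17.0 CPM in dendritic-like cells (279 UMIs), and it was 0 to 23.4 in the unnamed lymphocyte cluster led by Trgv2 and Cd160, which also held the highest mucosa level of the classes with at least 100 cells (2.39 to 7.38). Rspo1, with 1 UMI in the epithelial cells of each group, was 1.23 to 2.62 CPM in Ly6c+ monocyte-like cells, with UMIs in all tumors (105 of its 132 tumor UMIs). Fzd7 was 5.37 to 12.6 CPM in C1q+ macrophage-like cells, its highest pooled tumor level (8.95), but with stricter doublet removal its highest was in absorptive-like cells (8.79, from 10 UMIs). Fibroblasts and vessel cells were too few for a class of their own: a mixed stromal cluster of 82 tumor cells held Wnt4 (15 UMIs), Fzd4 (14 UMIs) and Wnt5a (5 UMIs), all at a higher pooled level there (48.9, 45.7 and 16.3 CPM) than in any named class. With 82 cells, these levels rest on few counts.

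**Figure D5:**
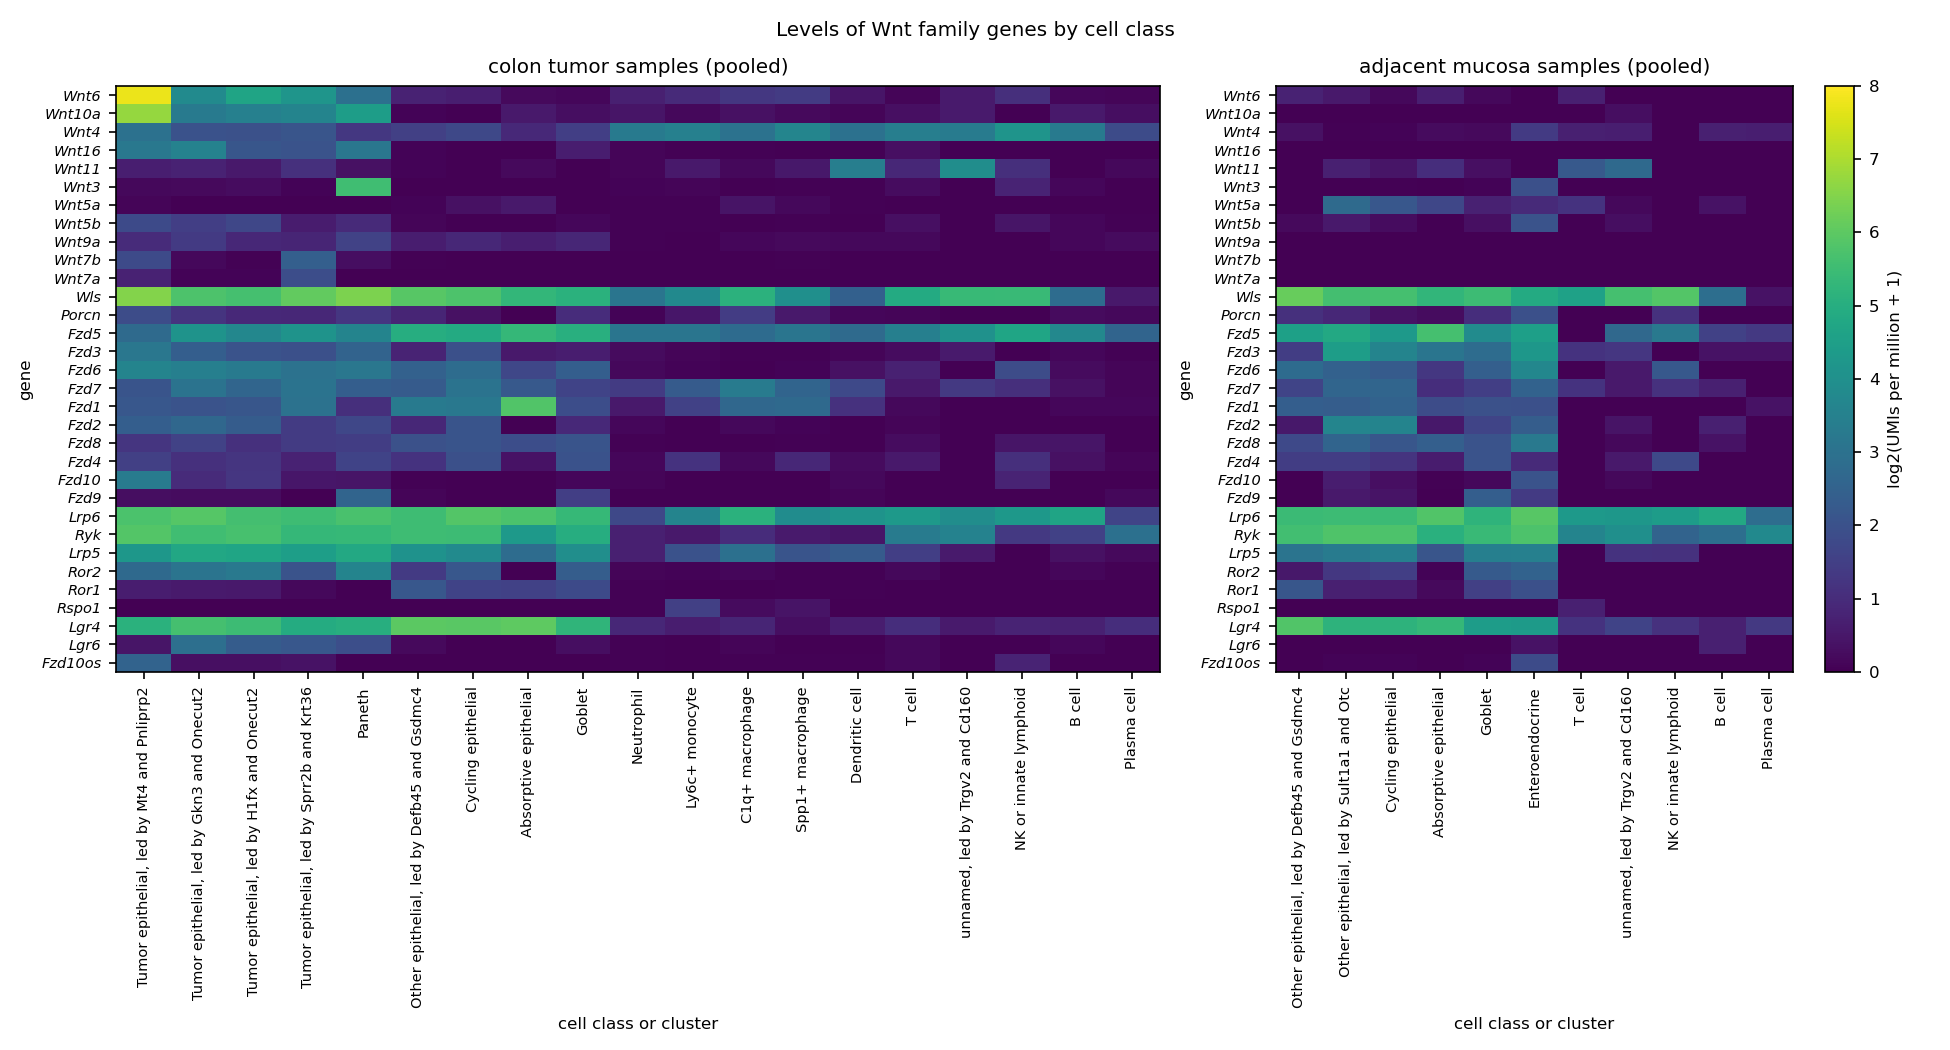
Pooled level of the 32 members with at least 100 UMIs (rows) in each cell class or cluster of at least 100 cells (columns), for tumors (left) and mucosa (right), as log2(CPM + 1) by color. Wnt6 and Wnt10a are brightest in the Mt4-led tumor cluster and dark in the mucosa, and Wnt4 is spread over the tumor immune classes.

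To separate level per cell type from the mix of cell types, members were tested within each class present in all mucosa samples and in at least 5 tumors. In absorptive-like cells Fzd1 was 26.2 to 110 CPM in 8 tumors against 1.99 to 4.33 in mucosa, all tumors above all mucosa samples as for 7.48% of the 6588 genes tested (log2 fold change 4.49 ± 0.49, adjusted p = 0.000248, edgeR; 17.3% of genes higher). The tumor cells of this class came mostly from a cluster led by Clca4b (505 of 534) and those of mucosa from one led by Cyp2c55 (3450 of 3901). Within the Clca4b-led cluster alone, with 7 tumors and 2 mucosa samples, Fzd1 was still higher in tumors (3.16 ± 0.48, adjusted p = 0.00426), whereas Lgr4, higher by 0.83 ± 0.27 in the whole class (adjusted p = 0.0369), was not (0.21, adjusted p = 0.603). With the mouse as a block Lgr4 missed the threshold (adjusted p = 0.0542), and it did so without any 1 of the mucosa samples, without tumor 3, 4, 7, 9 or 10 and at under 10% mitochondrial UMIs (adjusted p 0.0542 to 0.163). In goblet-like cells Lgr4 was 23.4 to 51.3 CPM in tumors against 18.4 to 23.2 in mucosa (0.90 ± 0.21, adjusted p = 0.0105), and Fzd5 15.5 to 78.8 against 11.5 to 17.3 (1.42 ± 0.33, adjusted p = 0.0111), where 7.96% of genes were higher. For Lgr4 all tumors were above all mucosa samples, as for 2.75% of genes. Thus Fzd5 was higher in tumor goblet-like cells while lower in the epithelial sums. In absorptive-like cells it did not pass (-0.18 with the mouse as a block, adjusted p = 0.541 in edgeR). Stricter doublet removal left 78 of 377 Fzd1 UMIs and 68 of 424 Lgr4 UMIs in tumor absorptive-like cells. The class tests were not repeated under it. Immune lineage markers reached 255 CPM in tumor goblet-like and 225 in absorptive-like sums, against at most 12.8 and 23.0 in mucosa. Their part was not tested. The goblet calls of Lgr4 and Fzd5 were lost without mucosa 1, that of Fzd5 also without mucosa 2, and that of Lgr4 also at under 10% mitochondrial UMIs.

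Among lymphocyte classes, Fzd5 was higher in tumors in T, B and plasma cell-like cells. Wnt4 could be tested only in T and plasma cell-like cells and was higher in both. In T cell-like cells Fzd5 was 4.90 to 19.3 CPM in the tumors and 0 in all mucosa samples (148 UMIs against 0, adjusted p = 0.000714 in edgeR). Wnt4 was 4.20 to 14.5 CPM in these cells against 0, 0 and 0.938 (log2 fold change 3.91 ± 0.80, adjusted p = 0.00133 in edgeR). Of the 8837 genes tested there, 12.2% were higher and 6.99% had all tumors above all mucosa samples. Fzd5 and Wnt4 passed the count filter in T cell-like cells through the tumors. The mucosa sums of this class held only 215183 to 1066357 UMIs, so counts of 0 in them are limited by depth. The part of depth in the separation of tumors from mucosa was not tested. In B cell-like cells Fzd5 was 0 to 23.1 CPM against 0.589 to 3.79 (2.59 ± 0.63, adjusted p = 0.00255, with 20.2% of genes higher), and it no longer passed the count filter without any 1 of the mucosa samples or without tumor 3, 7, 8, 9 or 10. In plasma cell-like cells Fzd5 (2.23 ± 0.50, adjusted p = 0.00573) and Wnt4 (2.53 ± 0.78, adjusted p = 0.0325) were higher and Lrp6 lower (-1.05 ± 0.28, adjusted p = 0.0361), where 9.09% of genes were higher and 9.78% lower. Both Wnt4 and Lrp6 were lost when mucosa samples were left out, and Wnt4 also with DESeq2. The mucosa sums were small in B cell-like (637486 to 1698287 UMIs) and plasma cell-like cells (838533 to 1548746) too. Low mucosa levels of Fzd5 and Wnt4 in these classes therefore rest on few UMIs, and the part of depth was not tested. The only member tested in NK or innate lymphoid-like cells, Wls, did not pass (-0.35 ± 0.32, adjusted p = 0.447, with 28.4% of genes called). Both Fzd5 and Wnt4 were also found in other tumor immune classes. Fzd5 was 24.9 CPM pooled in NK or innate lymphoid-like cells, 7.72 in neutrophil-like and 7.71 in Ly6c+ monocyte-like cells, and Wnt4 was 16.6, 8.87 and 10.1. Epithelial lineage markers in T cell-like cells were 66.7 to 291 CPM in tumors and 103 to 1696 in mucosa. The dissociation stress genes were higher in tumors (5106 to 7456 against 2268 to 2676 CPM), and their part was not tested.

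Lists of known components describe the rest of the pathway in the epithelial sums, where 34.2% of all genes were higher and 30.4% lower. Of a list of 15 inhibitors, mostly secreted but with the membrane receptors Kremen1 and Kremen2 among them, 8 were tested, 6 were higher (Kremen1 included) and 1 was lower. Dkk2 (log2 fold change 12.24) and Dkk3 (10.08), relatives of the Lrp6 blocker Dkk1, led, and Sfrp1, a decoy that binds Wnt proteins, fell (-5.06). The 4 tested genes of a list of receptor turnover genes and receptor partners were higher: the ubiquitin ligases Znrf3 (2.56) and Rnf43 (2.38), the R-spondin receptor Lgr5 (2.23) and Tspan12 (1.26), a partner of Fzd4. Of the planar polarity genes 7 of 9 tested were higher and none lower, led by Vangl2 (2.79) and Ptk7 (2.52). Among 19 transducers 15 were higher and none lower, and among 20 beta-catenin targets 16 were higher and none lower. In undifferentiated epithelium 16 transducers and 14 targets were higher and 1 of each lower, and in all-cell sums 11 and 13 were higher and 2 of each lower. The median log2 fold changes of these lists ran from 0.52 (transducers) to 6.47 (inhibitors), against 0.04 over all genes. In the epithelial sums, Dkk2, Dkk3, Sfrp2, Notum, Lef1, Nkd2, Prickle2 and Pygo1 did not exceed 0.175 CPM in any mucosa sample. They passed the count filter through the tumors. The counts and medians of the lists therefore do not measure the direction of all their genes. The 15 dissociation stress genes had 13 higher and none lower with a median of 1.93, so a list outside the pathway moved as well. The lists share genes: Notum and Wif1 are in targets and inhibitors, and Rnf43, Znrf3, Lgr5, Lef1 and Tcf7 are in targets and another list.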

How the data were processed

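Colon tumors and adjacent mucosa were profiled with a 3' single-cell kit. The values used are the UMI counts per gene and barcode that the authors deposited as filtered matrices, made with Cell Ranger against mm10. The submitters' processing notes name version 6.0.0, the study's methods name another, and the annotation release and use of strand in counting are not given in the sources used here. Barcodes with at least 500 UMIs, 200 genes and at most 25% mitochondrial UMIs were kept, and doublets were removed per library at 0.8% per 1000 barcodes. Cells were clustered (2000 variable genes without the members and the Wnt lists, 30 components, 20 neighbors, Leiden resolution 1, seed 11) with Python 3.11.15, leidenalg 0.10.2 and igraph 0.11.9, and classes were named "-like" from marker lists, with naming thresholds set after cluster profiles were seen. UMIs were summed per library over all, epithelial or undifferentiated epithelial cells, or over a class with at least 20 cells in the library. Sums were tested with edgeR 4.0.16 (quasi-likelihood, TMM, filterByExpr, two-sided, Benjamini-Hochberg over all genes, threshold 0.05) in R 4.3.3, which was first tested on simulated data. The submitters' labels give each library as a separate sample, and p-values measure the spread between libraries, of which up to 4 tumors came from 1 mouse. Alternatives were DESeq2 1.42.0, no count filter, no TMM, a mouse block, tumors summed by mouse, other cell filters and clusterings, and each library left out.

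Libraries were paired by the animal codes in the labels. Deviations of tumors and mucosa of the same mouse from their group means had correlations across genes of -0.156 (mouse A), -0.019 (B) and -0.044 (C) in the epithelial sums. Values per library are given for members past the threshold or with at least 500 UMIs, and levels by class for members with at least 100. From the pathway lists, examples are genes with the highest or lowest fold changes past the threshold. Members and lists were chosen with earlier results of these data known. Counting intervals are exact 95% intervals for the ratio of 2 counts, and a group at 0 was set to a floor of 3 UMIs. Both cover counting error only. Promoter windows came from RefSeq.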

Additional observations from a re-analysis of the deposited data

Results flagged for a closer look

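A single tumor lay far from the other 9 in 9 of the 78 sets of tumor values searched, where about 3.9 would be found by chance in independent sets. The sets are not independent, since the sums share cells. Wnt11 and Fzd2 in tumor 6 and Wnt5a in tumor 9 each recur in another sum. The 9 cannot therefore be read as an excess. In the epithelial sums, tumor 10 was far above the rest for Fzd1 (9.07 CPM, next 5.75) and far below for Ror2 (3.48, next 5.57). Tumor 6 was highest for Wnt11 (1.50 CPM, next 0.809) and Fzd2 (8.07, next 4.72). In undifferentiated epithelium tumor 6 again stood apart for Wnt11 (2.12 CPM, next 0.970), Fzd2 (9.85, next 5.82) and Lrp6 (60.1, next 54.6). Tumor 9 was highest for Wnt5a in all-cell sums (0.210 CPM, next 0.109) and in undifferentiated epithelium (0.146, next 0.0677), on few UMIs.

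For 4 of the 78 member comparisons searched, all tumors of a mouse moved one way against their own mucosa and all tumors of another mouse the opposite way. The difference between mice was not tested, and each mouse had 1 mucosa sample. In the epithelial sums, Ror1 (log2 fold change -0.46 over all) was higher in both tumors of mouse B and lower in all 4 of mouse C, and Wnt11 (-0.16) was lower in mouse B and higher in mouse C. In undifferentiated epithelium, Fzd7 (-0.11) was higher in mice A and B and lower in mouse C, and Wnt3, too sparse to test (log2 ratio of rates 0.82), was higher in mice A and C and lower in mouse B.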

How the results depend on the processing

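In the epithelial sums the number of members higher in tumors was 17 and ran from 16 to 18 with single libraries left out and from 15 to 22 under the other alternatives, and the number lower was 6 (4 to 7 and 4 to 7). In all-cell sums these counts were 16 (14 to 18, 14 to 17) and 11 (9 to 12, 9 to 12), and in undifferentiated epithelium 16 (15 to 16, 12 to 18) and 6 (6 to 6, 4 to 7). Values of single members in the epithelial sums were compared under all alternatives. Of these, 681 kept their side of the threshold, 12 lost it and 13 gained it. Another 3, past the threshold in the main or the alternative test, turned direction: Fzd9 without goblet-like cells (0.22), and Lrp6 (0.24) and Ryk (0.048) without TMM scaling. Turns of direction without a call in either test are among the 681. Wnt11, negative in the main test, was 0.033 with the mouse block and 0.13 without TMM scaling. Within classes the counts were small. In absorptive-like cells 2 members were higher (1 to 2 with libraries left out), 1 with the mouse as a replicate block, 1 under 10% mitochondrial UMIs and 1 in the Clca4b-led cluster alone, and 0 were lower (0 to 1), or 2 under 10% mitochondrial UMIs. In goblet-like cells 2 were higher (0 to 3), or 1 under 10% mitochondrial UMIs. In plasma cell-like cells 2 were higher (1 to 2), or 1 with DESeq2, and 1 lower (0 to 1), and in B cell-like cells 1 was higher (0 to 1), 0 meaning that it fell below the count filter. In these cases the cause was not tested. The mouse block changed the call of Lgr4 in absorptive-like cells (adjusted p = 0.0542) and, in all-cell sums, of Lgr4 (0.0713), Ror1 (0.050), Ror2 (0.0444) and Wls (0.0151) in edgeR, and no other. In mucosa, ligands with few UMIs are limited by depth: a count of 0 allows up to 3 UMIs over the group.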
